A study of Sus scrofa with 9 samples.

Results

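The genes described here carry out antigen presentation by major histocompatibility complex (MHC) class I, which in the pig is called SLA. The list held 10 genes, and a gene was taken where the deposited table of 21357 genes gave its name. By this rule 6 were found, each with 1 row, namely B2M, TAP1, TAPBP, PSMB8, PSMB9 and NLRC5. All 6 were above the filter used for testing, a mean of 0.1 FPKM, in every library. SLA-1, SLA-2, SLA-3 and TAP2 have no row of that name. A row whose Ensembl identifier (ENSSSCG00000025593) belongs to TAP2, and a row described as a class I histocompatibility antigen (ENSSSCG00000001229), are given beside the 6 genes. Both were chosen after the table had been examined and are not counted among the members.

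The libraries were made from the abdominal aorta of Tibetan minipigs, a small pig breed, and fell into 3 groups of 3. NC pigs were normal controls on a regular diet for 24 weeks, H8 pigs had a high-fat diet for 8 weeks and are labelled hypercholesterolemia, and H24 pigs had that diet for 24 weeks and are labelled atherosclerosis. According to the methods of the study, the NC and H24 pigs were male, were bought at 3 to 4 months of age, had 4 weeks to adapt and numbered 5 per group, of which 3 were sequenced, and the diet held added fat, cholesterol and egg yolk powder. The methods do not describe the H8 group. H8 and NC pigs differed in diet and in weeks on study, which cannot be told apart in H8/NC, and H8 and H24 pigs differed in the length of the diet and in the weeks on study together.

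MHC class I molecules show fragments of a cell's own proteins on its surface, where cytotoxic T cells and natural killer cells read them. The proteasome cuts proteins into peptides, and under interferon gamma it takes up the catalytic subunits PSMB8, PSMB9 and PSMB10 in place of PSMB5, PSMB6 and PSMB7, which makes the immunoproteasome. TAP1 and TAP2 together pump the peptides into the endoplasmic reticulum. Tapasin, the product of TAPBP, holds the empty class I molecule at this pump until a peptide is bound. The heavy chain pairs with the light chain, the product of B2M, before it leaves for the surface. NLRC5 is the transactivator that drives transcription of the class I genes.

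The rows were placed on the pig genome (Sscrofa11.1) as the deposited table gives them. TAPBP lies on chromosome 7 from 29663494 to 29674077 on the minus strand and has 2 transcripts. Its row also overlaps the RefSeq gene ZBTB22 (29673006 to 29676614), and how reads in the shared bases were divided is not stated. NLRC5 lies on chromosome 6 from 18932637 to 19036843 on the plus strand and has 5 transcripts. The B2M row on chromosome 1, from 126834580 to 126872431 on the minus strand, has 7 transcripts and overlaps both genes that RefSeq lists as B2M on this chromosome, so its value does not separate these copies.

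PSMB8, TAP1 and PSMB9 are neighbours on chromosome 7, and their rows overlap. The PSMB8 row runs from 25053132 to 25073046 on the minus strand with 3 transcripts, although the RefSeq gene of that name covers 25058456 to 25061666 only. It contains all 9268 bases of the TAP1 row (25062771 to 25072038, minus strand, 1 transcript) and 3732 bases of the TAP2 row (25045174 to 25056863, minus strand, 2 transcripts). The PSMB9 row (25071712 to 25077233, plus strand, 1 transcript) shares 1335 bases with the PSMB8 row and 327 bases with the TAP1 row. How reads in shared bases were divided, and whether strand was used in counting, is not stated, so the values of PSMB8, TAP1, TAP2 and PSMB9 are not fully separate measurements.

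**Figure D1:**
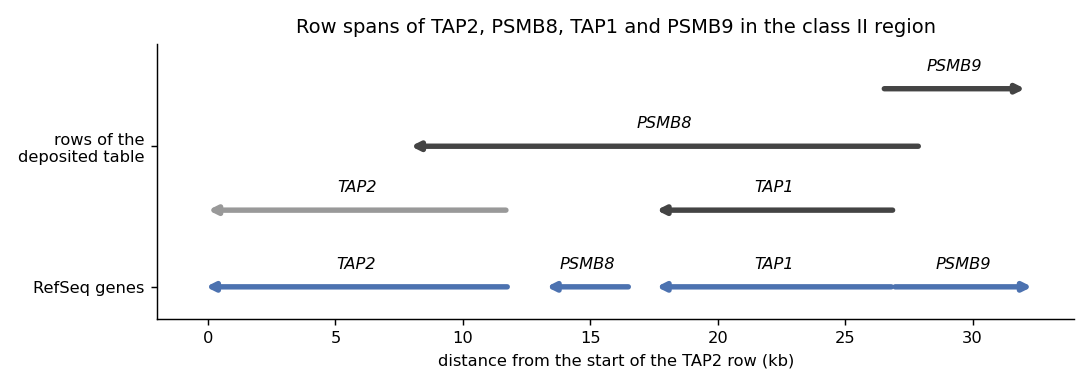
Spans of the TAP2, PSMB8, TAP1 and PSMB9 rows of the deposited table (grey and black) above the RefSeq genes (blue), against distance in kb from the start of the TAP2 row, with arrow heads giving the strand. The PSMB8 row covers the whole TAP1 row and part of the TAP2 row, whereas the RefSeq PSMB8 gene lies between them.

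Total counts were between 44094263 and 75787978 per library, and each of the 36 pairs of libraries differed by more than counting noise, with a chi-square of at least 191 per degree of freedom. Smooth muscle markers, which define the aortic media, were the most abundant of the marker lists (7 of 7 genes in the table), with a summed FPKM of 12586 to 14525 in NC, 10588 to 14317 in H8 and 1833 to 12451 in H24, and none of the 7 was called in any comparison. H24 replicate 3 stood apart, having the lowest smooth muscle sum and the highest leukocyte and macrophage sums of the 9 libraries. Leukocyte markers (6 of 6 genes in the table) summed to 25.0 to 34.9 FPKM in NC, 29.0 to 132 in H8 and 145 to 659 in H24. Macrophage markers (7 of 7) summed to 14.7 to 16.4, 13.2 to 79.0 and 79.8 to 927 FPKM, with MARCO at 0 in all NC libraries. T cell markers (5 of 5) summed to 0.165 to 0.362, 0.655 to 0.865 and 3.21 to 17.1 FPKM, and cytotoxic lymphocyte markers (5 of 5) to 1.12 to 2.86, 2.59 to 20.7 and 21.0 to 344 FPKM. NKG7 made most of the cytotoxic sum, with a mean of 129 of 131 FPKM in H24. In H8 the means of NKG7, GNLY and KLRB1 were above those in NC, whereas PRF1 (0.118 against 0.139 FPKM) and GZMB (0.00759 against 0.0369 FPKM) were below. B cell markers (5 of 5) summed to 5.07 to 5.74, 1.36 to 3.68 and 9.56 to 11.5 FPKM, with MS4A1 at 0 in all NC libraries. Endothelial markers (5 of 5) summed to 49.1 to 129, 33.0 to 59.2 and 58.3 to 92.4 FPKM, fibroblast markers (4 of 4) to 850 to 1049, 1341 to 1926 and 1192 to 1348 FPKM, and adipocyte markers (4 of 4) to 10.0 to 35.3, 0.625 to 1.18 and 2.87 to 17.8 FPKM. The part of these cell types in the values below was not tested, and in bulk tissue a change in the number of cells of a type and a change in RNA per cell cannot be told apart.

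**Figure D2:**
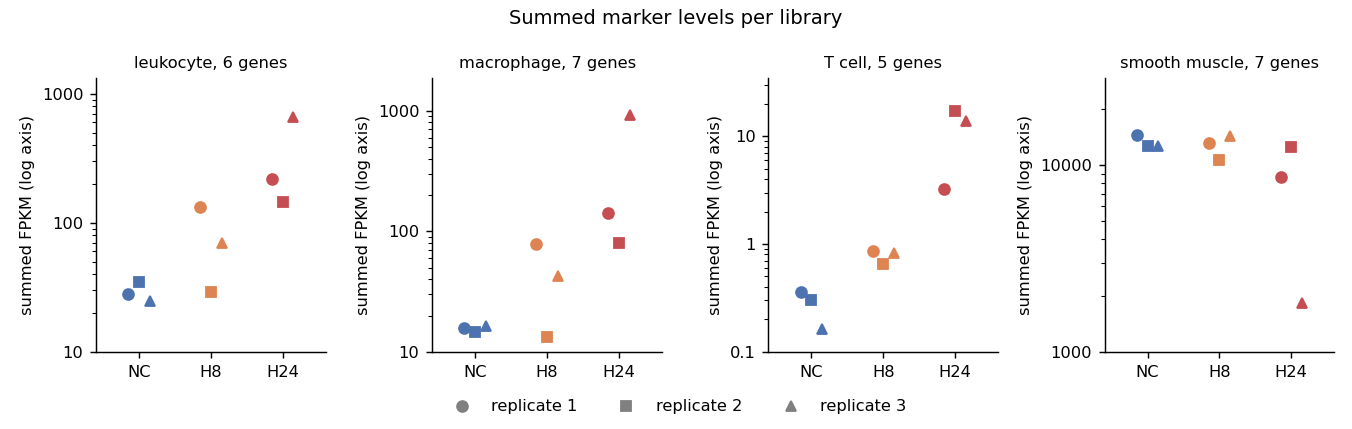
Summed FPKM of leukocyte, macrophage, T cell and smooth muscle markers in each library (log axes), by group, with 1 symbol per replicate number. H24 replicate 3 has the highest leukocyte (659) and macrophage (927) sums and the lowest smooth muscle sum (1833).

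Levels are given as FPKM, fragments scaled to transcript length and to the size of the library, which allows genes to be set side by side. In NC the mean level ran from B2M (73.5 ± 16.5, SD, n = 3) through TAPBP (43.2 ± 4.62), TAP1 (11.5 ± 1.67) and PSMB8 (6.90 ± 0.661) to NLRC5 (2.95 ± 1.14) and PSMB9 (2.54 ± 0.524). Of these neighbours, only NLRC5 and PSMB9 had overlapping ranges. The order was the same in H8, where B2M and TAPBP also overlapped. In H24 the mean of PSMB9 (14.0 ± 13.8 FPKM, SD, n = 3) was above that of NLRC5 (7.83 ± 2.89). B2M and TAPBP overlapped in H24 too, as did all neighbours in the order TAP1, PSMB8, PSMB9 and NLRC5.

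In the atherosclerosis aorta (H24), 5 of the 6 genes rose against NC, and all 6 had FPKM values above every NC library. The largest changes were in the immunoproteasome subunits PSMB9 (5.42-fold) and PSMB8 (3.99-fold), followed by TAP1 (2.69-fold), NLRC5 (2.62-fold) and B2M (2.39-fold), while TAPBP was at 1.61-fold. A gene was called when edgeR's quasi-likelihood test on the estimated counts gave an unadjusted p-value under 0.05 and the log2 fold change exceeded 1 in either direction. Of all 14828 genes tested, 9.95% were called higher by this rule, and 12.8% had H24 values above all NC values without overlap. The median log2 fold change was 1.41 over the 6 genes and 0.01 over all genes. None of the 6 passed a Benjamini-Hochberg adjusted p-value of 0.05 over all genes in edgeR, nor did any other gene (0%), although all 6 were higher with an unadjusted p-value under 0.05, as were 11% of all genes. With DESeq2, 1004 genes passed the adjusted threshold (7.42%), among them TAP1, PSMB8, PSMB9 and NLRC5.

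**Figure D3:**
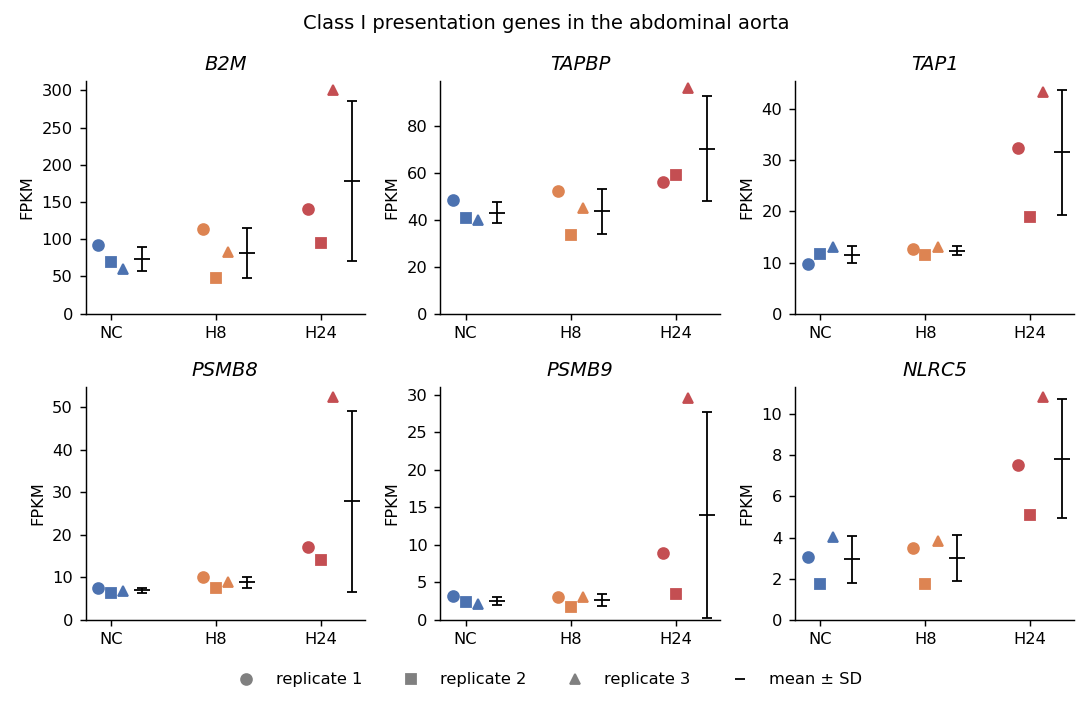
FPKM of the 6 genes in each library (linear axes from 0), by group, with 1 symbol per replicate number and the mean ± SD (n = 3) beside the points. All H24 points lie above all NC points for each gene, and H24 replicate 3 is the highest of the 9 libraries for each.

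PSMB9 is a catalytic subunit of the immunoproteasome. It was at 3.11, 2.42 and 2.09 FPKM in NC replicates 1 to 3, at 3.09, 1.73 and 3.07 in H8 and at 8.90, 3.45 and 29.6 in H24. H24 replicate 2 was close above the NC range, and H24 replicate 3 was far above all other libraries. The log2 fold change in H24/NC was 2.44 (SE 0.75, adjusted p = 0.232). Its counts were the lowest of the 6 genes, from 167 to 2566 per library.

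PSMB8, another catalytic subunit of the immunoproteasome, was at 7.58, 6.26 and 6.87 FPKM in NC, at 10.0, 7.48 and 8.87 in H8 and at 17.1, 14.0 and 52.4 in H24. NC and H8 overlapped by a single H8 library, and no H24 library overlapped with either. Its log2 fold change in H24/NC was 2.0 (SE 0.52, adjusted p = 0.165). The row also covers TAP1, as given above.

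TAP1, the first of the peptide pump's pair of chains, was at 9.79, 11.6 and 13.1 FPKM in NC, at 12.6, 11.4 and 13.03 in H8 and at 32.4, 18.9 and 43.4 in H24. NC and H8 occupied the same range, and all H24 libraries lay above it. It had the smallest adjusted p-value of the 6 genes, with a log2 fold change in H24/NC of 1.43 (SE 0.33, adjusted p = 0.136). The TAP2 row was at 6.67, 5.35 and 6.93 FPKM in NC, at 9.14, 6.52 and 8.80 in H8 and at 15.3, 11.4 and 25.8 in H24. It rose by nearly the same amount as TAP1, with a log2 fold change of 1.45 (SE 0.33, adjusted p = 0.136).

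B2M, the light chain, was at 91.9, 68.8 and 59.9 FPKM in NC, at 114, 47.7 and 82.9 in H8 and at 140.0, 94.97 and 300.0 in H24. The lowest H24 library exceeded the highest NC library by little, and H8 replicate 1 lay inside the H24 range. The log2 fold change in H24/NC was 1.26 (SE 0.46, adjusted p = 0.302). B2M was no longer called when H24 replicate 3 was left out (0.65, SE 0.26), nor without NC replicate 2 (1.24, SE 0.59) or NC replicate 3 (1.11, SE 0.56), where 7.78% and 6.82% of all genes were called higher.

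TAPBP, which encodes tapasin, was at 48.5, 41.0 and 40.1 FPKM in NC, at 52.4, 33.6 and 45.1 in H8 and at 56.2, 59.0 and 96.2 in H24. Its H24 values were above those of both other groups, but H24 replicate 1 lay close to the highest H8 library. The log2 fold change in H24/NC was 0.69 (SE 0.28, adjusted p = 0.344), with a 95% interval of 0.03 to 1.35, and TAPBP was not called because of its size.

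NLRC5, the transactivator, was at 3.07, 1.76 and 4.03 FPKM in NC, at 3.47, 1.72 and 3.82 in H8 and at 7.55, 5.10 and 10.9 in H24. NC and H8 spanned nearly the same range, and all H24 libraries were above it. Its log2 fold change in H24/NC was 1.39 (SE 0.39, adjusted p = 0.191).

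The classical class I heavy chains could be described only together. The row on chromosome 7 from 22823841 to 22962547 on the plus strand has 10 transcripts. It spans the RefSeq genes SLA-1, SLA-2, SLA-3 and SLA-5, which are closely similar copies, so it cannot be split among them. The row also spans the RefSeq genes LOC100515902 and LOC100513601, and it may include reads of these. It was at 23.8, 19.5 and 14.4 FPKM in NC, at 19.0, 36.2 and 40.0 in H8 and at 40.1, 48.0 and 101 in H24. All H24 libraries exceeded all others, though the lowest of them was almost level with H8 replicate 3. The row rose in H24/NC, with a log2 fold change of 1.70 (SE 0.43, adjusted p = 0.157).

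Within H24 the 3 pigs differed widely. Relative to the NC mean, the 6 genes were 1.301-fold to 3.50-fold in replicate 1, 1.29-fold to 2.03-fold in replicate 2 and 2.23-fold to 11.6-fold in replicate 3. Replicate 3 was the highest of all 9 libraries for 6 of the 6 genes, and replicate 2 was the lowest H24 library for 5 of them, the exception being TAPBP. The coefficient of variation in H24 was 98.6% for PSMB9, 76.6% for PSMB8 and 60.4% for B2M, compared with 31.7% for TAPBP. Without H24 replicate 3, 4 of the 6 genes were still called in H24/NC, namely TAP1 (log2 fold change 1.12, SE 0.27), PSMB8 (1.15, SE 0.22), PSMB9 (1.24, SE 0.45) and NLRC5 (1.07, SE 0.34), where 6.49% of all genes were called higher. The median over the 6 genes was then 1.10.

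**Figure D4:**
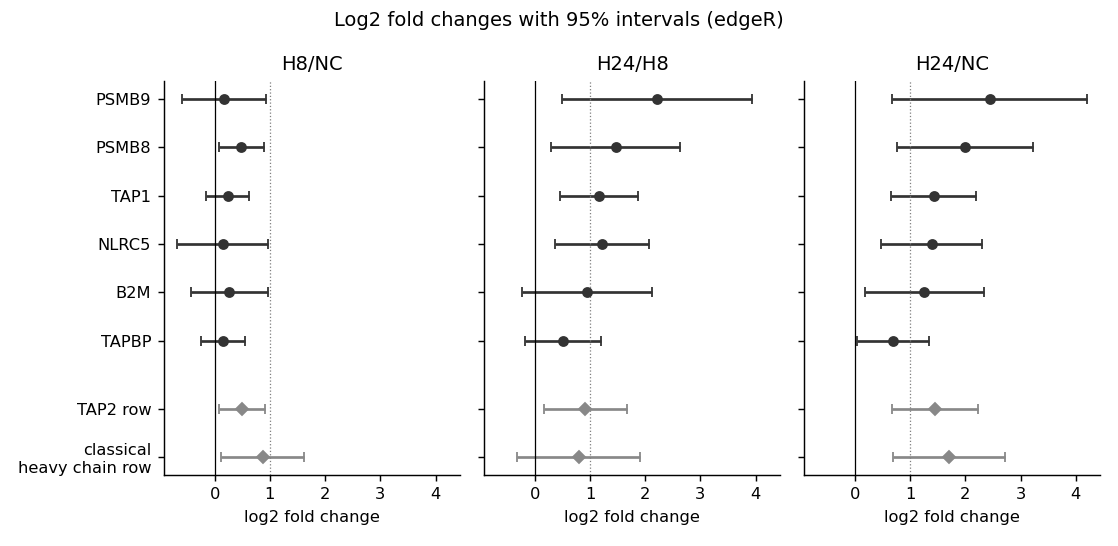
Log2 fold changes with 95% intervals from edgeR's quasi-likelihood test in H8/NC, H24/H8 and H24/NC, for the 6 genes (circles) and the TAP2 and classical heavy chain rows (diamonds), with a dotted line at 1. In H8/NC all 6 genes lie between 0.15 and 0.48, and in H24/NC between 0.69 and 2.44.

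After 8 weeks of the diet, none of the 6 genes was called against NC, where 5.11% of 14336 genes were called higher and 2.27% lower. Their log2 fold changes were 0.15 to 0.48, with a median of 0.20 (0.01 over all genes), and all 6 overlapped with NC (6.91% of all genes had H8 values above all NC values). PSMB8 was at 0.48 (SE 0.17, adjusted p = 0.276), the only one of the 6 with an unadjusted p-value under 0.05, as 8.89% of all genes were higher at that threshold. No member passed the adjusted threshold in edgeR (0.0279% of all genes) or in DESeq2 (5.81%). The 95% intervals were -0.15 to 0.62 for TAP1, -0.25 to 0.54 for TAPBP, -0.43 to 0.97 for B2M, -0.59 to 0.94 for PSMB9 and -0.67 to 0.97 for NLRC5. Each interval ended below the 2-fold size that the call required, and that of PSMB8 did so too (0.08 to 0.89). The signs of B2M, TAPBP and NLRC5 turned in at least 1 alternative setting, whereas TAP1, PSMB8 and PSMB9 stayed above 0 in all 17. The TAP2 row was at 0.50 (SE 0.18, adjusted p = 0.271), and the heavy chain row at 0.87 (SE 0.32, adjusted p = 0.285). The heavy chain row passed the call when NC replicate 1 (1.03) or H8 replicate 1 (1.13) was left out, where 4.64% and 4.72% of all genes were called higher.

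In this comparison all 6 leukocyte markers and 3 of 6 tested macrophage markers were called higher (5.11% of all genes). The median log2 fold change of the leukocyte markers was 1.96. In H24/NC the medians were 4.86 for the leukocyte markers (6 of 6 higher) and 4.50 for the macrophage markers (7 of 7). Of all genes, 9.95% were called higher there. Without H24 replicate 3, all 6 leukocyte markers were still called higher in H24/NC (6.49% of all genes), with a median of 3.10. In H24/H8 the number fell from 6 of 6 (7.22% of all genes) to 1 of 6 (3.75%) without that replicate. H8 replicate 1 and H24 replicate 2 had similar leukocyte sums, 132 and 145 FPKM, and macrophage sums of 79.0 and 79.8 FPKM, but T cell sums of 0.865 and 17.1 FPKM and B cell sums of 2.68 and 9.56 FPKM. Single genes made most of the last sums in H24. CD3E alone was at 15.8 FPKM in H24 replicate 2, and CD79A had an H24 mean of 10.1 FPKM. In H8 replicate 1 and H24 replicate 2, chosen after the sums had been seen, TAP1 was at 12.6 and 18.9 FPKM, PSMB8 at 10.0 and 14.0, NLRC5 at 3.47 and 5.10, PSMB9 at 3.09 and 3.45, TAPBP at 52.4 and 59.0, and B2M at 114 and 94.97. With 1 library on each side, these differences have no replicate check.

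Between the diet groups, 4 of the 6 genes were higher in H24 than in H8, where 7.22% of 14788 genes were called higher. PSMB9 had a log2 fold change of 2.22 (SE 0.73, adjusted p = 0.341). PSMB8 was at 1.47 (SE 0.50), NLRC5 at 1.21 (SE 0.36) and TAP1 at 1.16 (SE 0.30), with adjusted p-values in edgeR of 0.336 to 0.341. B2M (0.95, SE 0.50, adjusted p = 0.422) and TAPBP (0.51, SE 0.29, adjusted p = 0.450) were not called, nor were the TAP2 row (0.92, SE 0.32) and the heavy chain row (0.79, SE 0.47). In 5 of the 6 genes, all but B2M, the H24 values lay above all H8 values (15.5% of all genes), and the median over the 6 was 1.19, compared with 0.04 over all genes. No member passed the adjusted threshold in edgeR, as 0.0135% of all genes did, and 4 of the 6 were higher with an unadjusted p-value under 0.05 (8.68% of all genes). With DESeq2, TAP1 and PSMB9 passed the adjusted threshold, as did 4.98% of all genes. These calls rested on single libraries: none of the 6 was called without H24 replicate 3, where the log2 fold changes were 0.24 to 1.05 and 3.75% of all genes were called higher, TAP1 alone was called without H8 replicate 2 (3.73% of all genes), and PSMB8 was lost without H8 replicate 3 (4.18%). H24/H8 shares its H24 libraries with H24/NC and its H8 libraries with H8/NC.

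The immunoproteasome was then set against the subunits it replaces, as a ratio of FPKM within each library, which does not depend on the scaling between libraries. The PSMB8 row shares bases with the TAP1 and TAP2 rows, and the PSMB9 row with the TAP1 row, as given above. The ratios with PSMB8 and PSMB9 may therefore include reads of these neighbours. PSMB8/PSMB5 was 1.002, 1.07 and 1.36 in NC, 2.02, 1.10 and 1.72 in H8 and 3.04, 2.503 and 11.08 in H24. PSMB9/PSMB6 was 0.121, 0.0987 and 0.0751 in NC, 0.130, 0.0607 and 0.109 in H8 and 0.446, 0.134 and 1.32 in H24. PSMB10/PSMB7 was 0.0539, 0.0531 and 0.0467 in NC, 0.0553, 0.0554 and 0.0585 in H8 and 0.114, 0.0733 and 0.341 in H24. All H24 ratios lay above all ratios of both other groups. In H24/NC the differences of mean log2 ratio were 1.95, 2.15 and 1.47, or 3.87-fold, 4.44-fold and 2.77-fold. Without H24 replicate 3 they were 1.28, 1.34 and 0.84. Each had p = 0.1 in the exact two-sided permutation test, the smallest p that 3 libraries against 3 can give, and 0.129 after adjustment over the 9 tests of 3 ratios in 3 comparisons. In H8/NC the differences were 0.46 (exact permutation p = 0.2), -0.02 (p = 1) and 0.14 (p = 0.1). The denominators were not called in H24/NC, with log2 fold changes of -0.23 for PSMB5, -0.21 for PSMB6 and -0.07 for PSMB7. The PSMB5 row was found by its description and not by name.

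**Figure D5:**
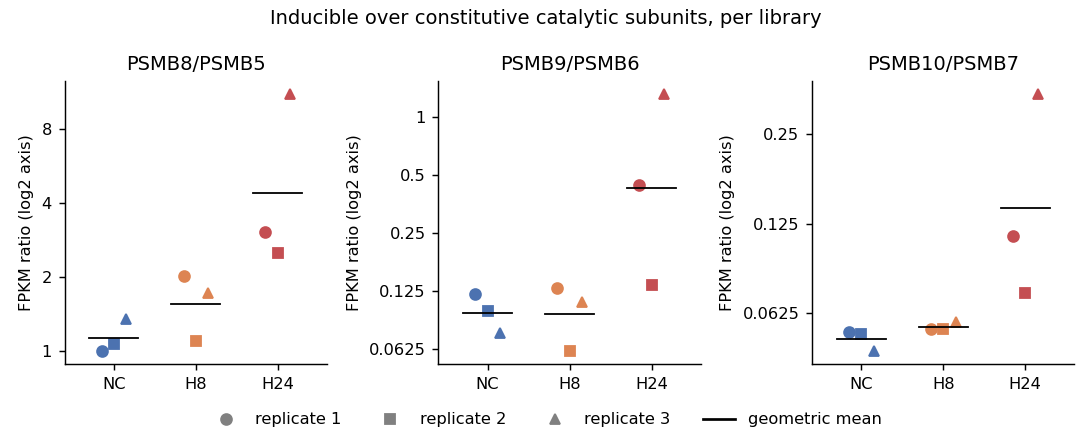
FPKM ratios of the inducible to the constitutive catalytic subunits in each library (log2 axes), by group, with the geometric mean as a line. Every H24 library lies above every NC and H8 library in each ratio, PSMB9/PSMB6 in H24 replicate 2 (0.134) being close to the highest H8 value (0.130).

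Beyond these genes, 65 genes of the class I pathway were listed by role, of which 55 were in the table and 51 were tested in H24/NC. In H24/NC 14 of the 51 rose and none fell (9.95% and 1.52% of all genes), with a median log2 fold change of 0.52. In H8/NC 3 of 49 rose and none fell, close to the 5.11% and 2.27% of all genes, with a median of 0.03. In H24/H8 10 of 51 rose and none fell (7.22% and 3.05% of all genes), with a median of 0.42. Without H24 replicate 3, 5 of 50 rose in H24/NC (6.49% of all genes), and without NC replicate 3 the pathway genes called numbered 7 (6.82% of all genes).

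Of the relatives of the class I heavy chain, 5 of 7 tested genes rose in H24/NC (9.95% of all genes), with a median of 1.82. Without H24 replicate 3, 1 of 6 did (6.49%). CD1D, which presents lipids, had a log2 fold change of 3.88 (SE 0.92, adjusted p = 0.145) at levels of 0.0228 to 0.0456 FPKM in NC and 0.132 to 1.15 in H24. HFE, a regulator of iron uptake, was at 2.45 (SE 0.68, adjusted p = 0.191), with 0.838 to 1.14 FPKM in NC and 1.57 to 10.8 in H24. None of the relatives was called in H8/NC, and 4 of 7 rose in H24/H8 (7.22% of all genes). Of the further SLA genes, named after their values were seen, SLA-5 (1.82, SE 0.61) and SLA-8 (1.17, SE 0.47) rose in H24/NC and SLA-7 (0.56, SE 0.38) was not called, SLA-7 and SLA-8 being rows found by their descriptions. SLA-5 had a row of its own, but the heavy chain row also spans the RefSeq gene SLA-5. How reads of these similar copies were divided is not stated, so the SLA-5 row and the heavy chain row may not be separate measurements. SLA-4, SLA-6, SLA-9 and SLA-11 were not analysed here.

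Of 13 genes for peptide supply and trimming, 2 rose in H24/NC (9.95% of all genes) and the median was 0.22. They were PSMB10, the remaining inducible catalytic subunit (1.80, SE 0.63, adjusted p = 0.281), and ERAP2, an aminopeptidase that trims peptides in the endoplasmic reticulum (1.39, SE 0.48, adjusted p = 0.283). PSMB10 was at 2.83, 2.85 and 2.40 FPKM in NC, at 2.53, 2.14 and 2.90 in H8 and at 5.35, 3.55 and 19.6 in H24. None of the 13 was called in H24/NC without H24 replicate 3. None was called in H8/NC (5.11% of all genes were called higher), and 1 was in H24/H8 (7.22%).

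Of 8 genes of the loading complex and of chaperones in the endoplasmic reticulum, none was called in H24/NC or H8/NC, and 1 rose in H24/H8 (7.22% of all genes). PDIA3, the oxidoreductase of the loading complex, was at 0.63 (SE 0.31, adjusted p = 0.427) in H24/NC, and UGGT1, which checks the folding of glycoproteins, at 0.67 (SE 0.35, adjusted p = 0.459). HSPA5, the main chaperone of this compartment, was at -0.00046 (SE 0.26). The median of the 8 was 0.38. These genes share the compartment of tapasin, whose own value was 0.69.

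On the interferon gamma axis and among the class I transcription factors, 5 of 20 tested genes rose in H24/NC, 3 of 20 in H8/NC and 2 of 20 in H24/H8, with medians of 0.45, -0.06 and 0.41. Of all genes, 9.95%, 5.11% and 7.22% were called higher in these comparisons, so the share in H24/H8 was near that of all genes. IRF1, a transcription factor that binds class I promoters, had a log2 fold change of 1.72 (SE 0.45, adjusted p = 0.170) in H24/NC. It was at 5.69, 9.48 and 10.3 FPKM in NC, at 9.23, 46.8 and 10.9 in H8 and at 24.9, 14.8 and 45.7 in H24. In H8/NC it was also called (1.59, SE 0.67, adjusted p = 0.333), with H8 replicate 2 alone far above the NC range. In that library all 6 class I genes were at their lowest of H8. The heavy chain row was not, at 36.2 FPKM there against 19.0 in H8 replicate 1 and 40.0 in H8 replicate 3. A link of IRF1 to these values was not tested. IRF8, a factor of myeloid and lymphoid cells, rose in H24/NC (4.46, SE 0.81, adjusted p = 0.132) and in H8/NC (2.11, SE 0.46, adjusted p = 0.187). On the negative side, the subunits RFXAP (-0.57, SE 0.30) and NFYB (-0.49, SE 0.31) of factors that bind MHC promoters were not called in H24/NC.

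CIITA, the class II transactivator and a relative of NLRC5, rose in H24/NC (1.67, SE 0.59, adjusted p = 0.286) but was not called in H8/NC (-0.61, SE 0.70). IFNG, interferon gamma itself, was too low to be tested, with 0 counts in all NC libraries, at most 6 counts in H8, and 9, 0 and 24 counts in H24. A floor of 3 counts equals 0.0396 to 0.0680 CPM in these libraries and covers counting error only.

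Of the receptors that read class I, 3 were tested in H24/NC and 2 rose (9.95% of all genes). CD8A, the coreceptor of cytotoxic T cells, had a log2 fold change of 4.15 (SE 0.98, adjusted p = 0.140), with 0.0388, 0.0803 and 0.0278 FPKM in NC, 0.164, 0.0401 and 0.0909 in H8 and 0.550, 0.197 and 1.99 in H24. CD3E, a chain of the T cell receptor complex that is also among the T cell markers, was at 6.20 (SE 1.07, adjusted p = 0.132). Its H24 values of 1.22, 15.8 and 4.98 FPKM were highest in replicate 2, where CD8A was at its lowest of H24. The T cell marker sums, which include CD3E, were 3.21, 17.1 and 13.8 FPKM in H24. In replicate 2, 5 of the 6 class I genes were also at their lowest of H24, whereas the heavy chain row (48.0 FPKM) was not.

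Genes with the most similar course over the 9 libraries were found by the root mean square difference of centred log2(FPKM + 0.1) among 9748 candidates, as a description only, since all values share the same libraries. PSMB8 was closest to ABHD12 (0.15), CMTM3 and CTSB, the last encoding the lysosomal protease cathepsin B. PSMB9 was closest to SLC9B2 (0.21), NRP2 and TLR1, a Toll-like receptor. TAP1 was closest to ANKRD44 (0.18), PARP12 and CH25H, and PARP12 was also among the 3 closest of NLRC5 (0.33) and the closest of the TAP2 row (0.14). B2M was closest to TTF2 (0.17), AKAP5 and STK4, and TAPBP to RECQL5 (0.11), DTX2 and DOLPP1. Among the 6 genes themselves, the nearest were B2M and TAPBP (0.35) and the farthest TAPBP and PSMB9 (0.82). No member was among the 3 closest genes of another, and TAP1 ranked 19 for NLRC5 and PSMB8 ranked 39 for PSMB9.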

How the data were processed

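RNA-seq libraries of 9 minipigs were grouped by their labels as NC, H8 and H24, and none was left out. From poly(A) RNA (integrity number over 7.0), the authors made paired-end reads, aligned them to Sscrofa11.1 with HISAT 2.0 and computed FPKM with StringTie 1.3.0. Beside FPKM the authors deposited an estimated count for every gene in whole numbers, unscaled. Its derivation and the annotation release are not given in the sources used here. The submitters' processing notes further list Bowtie 0.12.2 and a mouse build, with no role. The labels' extraction text speaks of an adipose type, while the tissue labels give the abdominal aorta.

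The members and lists were chosen with earlier results of these data known. Counts were tested with edgeR 4.0.16 in R 4.3.3 (TMM, quasi-likelihood test of both directions, dispersion trend) on the libraries of each comparison and the genes averaging 0.1 FPKM or more in them, with Benjamini-Hochberg adjustment over all genes. P-values measure the spread between pigs. The call rule (log2 fold change beyond 1, unadjusted p-value under 0.05) follows the study's methods. Fold changes are from edgeR, SE is the log2 fold change over the root of its F statistic, and levels are FPKM. Subunit ratios were compared by exact permutation. Genes named beside the members were, for each pathway list, the 2 lowest p-values in each direction in H24/NC (the negative side where there was one), with the subunits of the ratios and the regulators IRF1, IFNG and CIITA. Another gene named by this rule is not reported here. Marker lists were summed as FPKM. Alternatives were other normalizations and filters, DESeq2 1.42.0, limma 3.58.1 on log2(FPKM + 0.1) and log2(FPKM + 1), no dispersion trend, a replicate block, summed names, all 9 libraries together and each replicate left out. Sequences were not used here.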

Additional observations from a re-analysis of the deposited data

How the results depend on the processing

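Over 17 alternatives per comparison, all 6 genes kept a positive log2 fold change in H24/NC and H24/H8, and none was called or passed the adjusted threshold in H8/NC. In H24/NC the median over the 6 genes was 1.10 to 1.65. Leaving out each replicate in turn gave 4 to 5 of the 6 genes called in H24/NC and 5 to 14 pathway genes. Of all genes, 6.49% to 12.1% were called higher in these fits. The differences of mean log2 subunit ratio in H24/NC were then 1.28 to 2.36 for PSMB8/PSMB5, 1.34 to 2.99 for PSMB9/PSMB6 and 0.84 to 1.94 for PSMB10/PSMB7. In H24/H8 leaving out each replicate gave 0 to 4 of the 6 and 5 to 14 pathway genes, where 3.73% to 9.56% of all genes were called higher. The median over the 6 was then 0.76 to 1.40. With DESeq2, 4 of the 6 passed the adjusted threshold in H24/NC and 2 in H24/H8, against none in edgeR. Limma on log2(FPKM + 1) called 8 pathway genes in H24/NC and 1 in H8/NC, where 4.82% and 1.41% of all genes were called higher. In H8/NC, TAPBP turned to -0.00184 with limma on log2(FPKM + 0.1) and to -0.00140 on log2(FPKM + 1), NLRC5 to -0.10 without NC replicate 2 and -0.025 without H8 replicate 3, and B2M to -0.047 without H8 replicate 1. Leaving out each replicate in turn gave -0.047 to 0.49 for B2M and -0.10 to 0.43 for NLRC5 there. The cause of these changes between settings was not tested. Scaling by library size alone moved the median of all genes to -0.13 in H8/NC and 0.24 in H24/H8. The labels number the replicates in every group, but same-numbered libraries did not deviate together over the genes above the filter (correlations of -0.05 to 0.09). Whether they were linked for single genes was not tested. With the replicate block, 3 of the 6 genes were called in H24/NC (TAP1, PSMB8 and NLRC5), where 7.51% of all genes were called higher. Each group held 3 pigs, and the lowest count of the 6 genes in a library was 167.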
